A study of Mus musculus with 54 samples.

Results

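Polycomb repressive complex 2 (PRC2) adds methyl groups to lysine 27 of histone H3, a mark found on repressed genes. Here the RNA of 9 genes that encode its subunits and partners was followed through the first days of muscle differentiation. The genes were taken by name and NCBI gene identifier as parts of the complex, in a choice made with earlier results of these data known, and they are 9 of the 19400 genes whose reads could be counted in every library. They are Ezh2 and Ezh1, Suz12, Eed, Rbbp4 and Rbbp7, and the partners Jarid2, Mtf2 and Phf19.

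The cells were mouse H2K myogenic progenitors, a line in which a temperature-sensitive viral T antigen is made in the presence of γ-interferon and allows growth until the cells are moved to differentiation medium. Of the 6 lines, 1 was wildtype and 1, EMD-/y, lacked emerin, a protein of the inner nuclear membrane that is lost or altered in Emery-Dreifuss muscular dystrophy. The other 4 were EMD-/y cells transduced by lentivirus with wildtype emerin (+EMD) or with emerin carrying S54F, Δ95–99 or Q133H. RNA was taken at 0, 24 and 48 h in differentiation medium (days 0, 1 and 2), with 3 libraries for each of the 18 groups and 54 in all. Each line was 1 cell population. All 4 transduced lines had been selected in puromycin. S54F, Δ95–99 and Q133H were also plated more densely than wildtype and EMD-/y and had puromycin in the medium during differentiation, and for +EMD the plating density of these cultures is not given in the sources used here. Differences of the transduced lines from wildtype cannot be told apart from those of transduction and selection, nor in the 3 mutant lines from those of density, and no line transduced without emerin is analysed here.

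The catalytic subunit is either Ezh2, which predominates in dividing cells, or Ezh1, a paralog that persists in resting and differentiated cells. Suz12 and Eed hold the enzyme together and Eed reads the methyl mark, while Rbbp4 and Rbbp7 are histone chaperones shared with other chromatin complexes. Mtf2 and Phf19 are Polycomb-like proteins that bring the complex to CpG-rich DNA, and Jarid2 marks the alternative form of the complex. In dividing myoblasts Ezh2 occupies muscle genes such as those of myosin heavy chain and creatine kinase, and its loss from them accompanies differentiation. Ezh2 is also a textbook target of E2F, the transcription factor family that switches on genes of S phase.

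For that reason the promoters, from 250 bases before to 50 bases after each annotated start in RefSeq (GRCm38.p6), were searched on both strands for the E2F motif, spelled TTTCCCGC, TTTGGCGC, TTTCGCGC or TTTGCCGC. All 9 genes were in the promoter set, and 3 of them held the motif, against 2.60% of the 27025 genes in the set. The 3 stretches of 30 bases are shown 5′ to 3′ on the strand of the gene, with the motif in capitals.
Ezh2: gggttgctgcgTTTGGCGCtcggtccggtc
Suz12: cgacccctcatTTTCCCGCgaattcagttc
Phf19: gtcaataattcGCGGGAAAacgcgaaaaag
The Ezh2 stretch is chr6:47595009-47595038 on the minus strand and holds its match 3 bases after the annotated start. The Suz12 stretch is chr11:79992876-79992905 on the plus strand, with its match at position -219 from the start. The Phf19 stretch is chr2:34914166-34914195 on the minus strand, where the motif is read on the opposite strand and begins at position -208. Positions are counted from the start that the promoter set uses. For Ezh2 (47595030) and Phf19 (34913976) that start lies 240 and 377 bases inside the gene span given below, which reaches to a start farther upstream, and windows around those outer starts were not searched. A match describes these letters only.

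Each library held 11872841 to 16535821 reads in the genes recovered in all libraries. In nearly every group a pair of libraries lay far closer together than either did to the third. The chi-square per degree of freedom was 2.04 to 8.31 for the closest pairs and 6.11 to 56.3 for the others, so no pair was within sampling noise. The labels describe 3 technical replicates of each of 2 biological replicates, which is more libraries than the 3 of each group here. Which library belongs to which replicate is not known, and all 3 may stem from the same biological replicate. The p-values may therefore measure technical spread. Each test was therefore repeated with the closest 2 libraries of a group averaged as 1 sample. This alternative was chosen after the data were seen and is called the averaged test here. It does not cover the case that all 3 libraries are technical replicates. Library 3 of Q133H at day 2 stood apart (r of 0.955 and 0.960 with its partners, where every other pair had at least 0.967), and tests of that group are also given without it. Reads of mouse Emd numbered 983 to 2034 in the wildtype libraries, 0 to 3 in EMD-/y and 0 to 2 in the transduced lines, whose transgene is not checked by them. Among markers of the labelled cell type, Cdh15 (M-cadherin) was at 2920 to 19674 normalised reads in every library. Pax7, a marker of muscle progenitors, averaged 56.5 to 366 in the wildtype groups, 382 to 2110.4 in those of EMD-/y, +EMD, S54F and Δ95–99 and 2.22 to 8.17 in those of Q133H, so it was higher than in wildtype in 12 of 15 comparisons and lower in 3 (10 and 3 in the averaged test). Myf5, a further progenitor marker, averaged 146 to 225 in wildtype and 272 to 1433 in the other lines and was higher in 14 of 15 (11 in the averaged test). Other listed progenitor markers went differently. Cdh15 was higher than in wildtype in 3 of 15 and lower in 5 (2 and 2 in the averaged test). Itga7 was higher in 1 of 12 and lower in 4 (0 and 4), and Myod1 higher in 0 of 6 and lower in 1 (0 and 0). The part of these markers in the members' differences was not tested. Summed over each list, the endothelial markers Cdh5, Pecam1 and Kdr reached 6.31 to 55.8 normalised reads per library, the fibroblast markers Pdgfra, Dcn and Thy1 8.10 to 103, the blood markers Ptprc and Cd68 6.66 to 148 and the fat markers Adipoq and Plin1 at most 3.87. The fibroblast markers gave 7 rises and 0 falls in 23 limma tests between days. In single comparisons 10.7% to 33.8% of all genes rose and 14.3% to 33.4% fell. These markers were higher than in wildtype in 4 of 30 and lower in 8, where 6.84% to 33.1% and 6.27% to 34.0% of all genes were. In the averaged test Dcn rose in 3 comparisons between days, and Pdgfra and Thy1 in 0. Against wildtype that test left Dcn higher in 2 and lower in 1, and Pdgfra higher in 1. Cd68, a macrophage marker, averaged 113 in Q133H at day 2 (135 without the library that stood apart) and 8.56 to 49.9 in the other groups. Because whole cultures were sequenced, fewer cells of a type and less RNA per cell cannot be told apart.

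Ezh2 (gene 14056, chr6:47530274-47595270, minus strand, mm10) fell sharply on the second day in every line. In wildtype cells its 3 libraries held 2177, 2236 and 2477 normalised reads at day 0, then 1747, 1454 and 1242 at day 1 and 508, 485 and 497 at day 2. Normalised reads are reads divided by a size factor for the depth of the library. In EMD-/y the values were 2344, 2265 and 2292, then 1788, 1379 and 1299, then 453, 531 and 535, which overlapped with wildtype on each day. The S54F libraries began at 2662, 2670 and 2694, passed through 1878, 2158 and 1912 and ended at 719, 519 and 602. These 3 lines shared the same course, with a first fall by day 1 and a steeper one by day 2.

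In +EMD the day 0 values of 2451, 2487 and 2604 were followed by 3072, 2809 and 3127 at day 1 and by 1212, 1330 and 1375 at day 2. Δ95–99 kept 2534, 2602 and 2571 at day 0 and 2501, 2471 and 2515 at day 1, and then held 1296, 1452 and 1362. Q133H went from 3178, 2958 and 3300 to 2464, 2905 and 2892 and then to 1266, 1300 and 967, the last of these being the library that stood apart. In the last 2 of these lines no change passed the test by day 1, and in all 3 the lowest day 2 library still held more Ezh2 reads than any day 2 library of wildtype, EMD-/y or S54F.

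**Figure D1:**
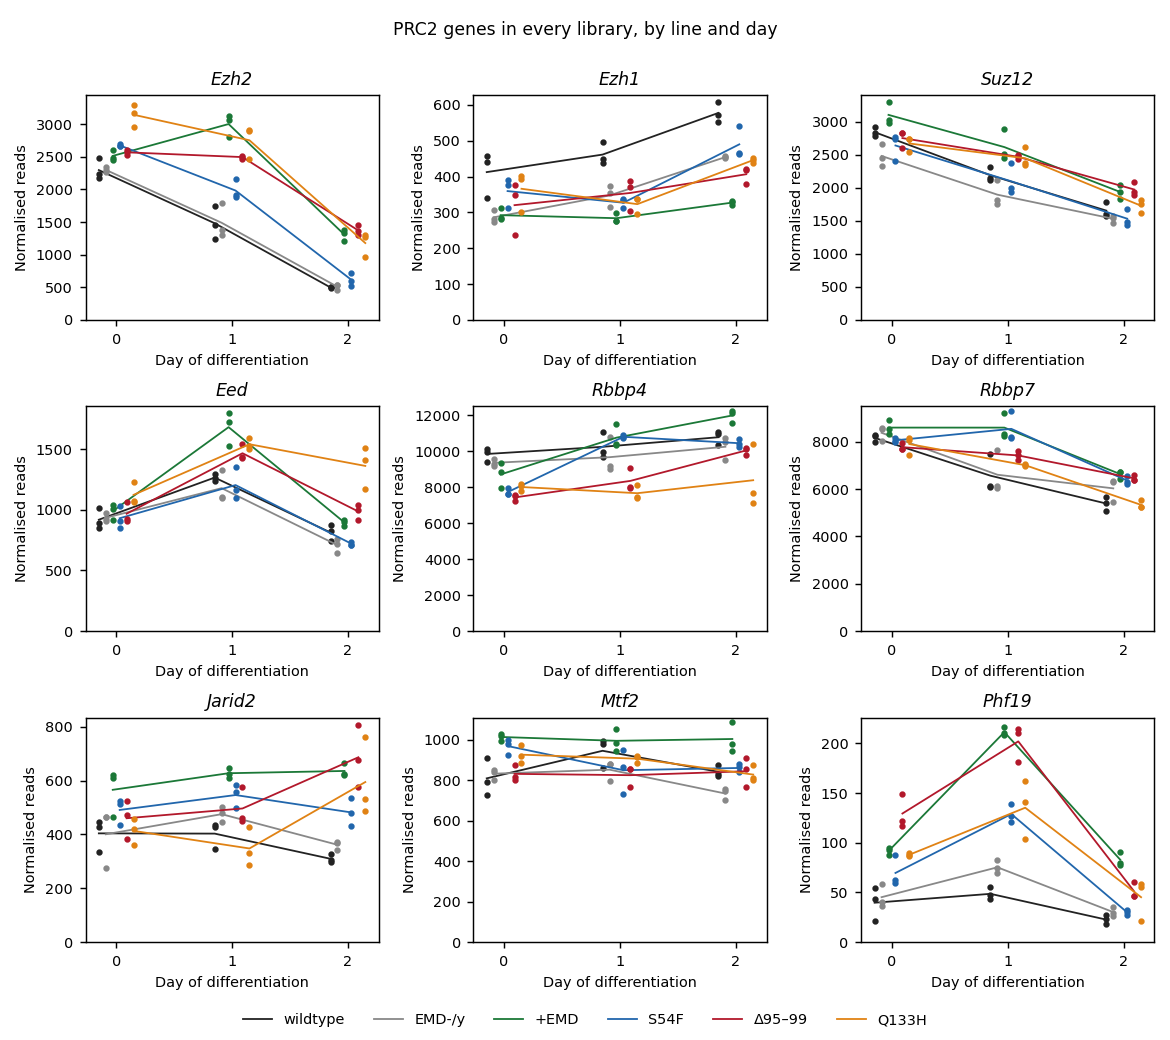
Normalised reads of the 9 genes (vertical axes, linear from 0) at days 0, 1 and 2 (horizontal axes), with a point for each library and a line through the mean of the 3 libraries of each cell line. Ezh2 fell in every line, from 2297 to 497 in wildtype on average, while Rbbp4 stayed between 7117 and 12245 in all libraries.

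Between day 1 and day 2 Ezh2 fell 3.02-fold in wildtype (log2 change -1.59 ± 0.12 SE, 3 libraries against 3, adjusted p = 5.421e-05 by limma) and 2.98-fold in EMD-/y (log2 -1.58 ± 0.14). The fall was 3.35-fold in S54F, 2.33-fold in +EMD, 2.43-fold in Q133H and 1.82-fold in Δ95–99. All 6 passed the threshold, and 5 did so in the averaged test, the exception being Q133H (adjusted p = 0.146), where that test called 0.0% of all genes. Without the library that stood apart the Q133H fall was 2.24-fold (log2 -1.17 ± 0.09, adjusted p = 0.0007771). Over the 6 comparisons 14.3% to 33.4% of all genes tested fell.

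From day 0 to day 1 the direction of Ezh2 differed among lines. It fell 1.55-fold in wildtype, 1.56-fold in EMD-/y and 1.34-fold in S54F, and it rose 1.19-fold in +EMD (log2 0.25 ± 0.06, adjusted p = 0.01112). Δ95–99 gave a log2 change of -0.02 (95% interval -0.13 to 0.09) and Q133H one of -0.17 (-0.37 to 0.03), neither past the threshold. The averaged test kept the falls in wildtype and S54F and not the other 2 calls.

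Against wildtype on the same day, Ezh2 was higher at day 2 in +EMD by 2.62-fold (log2 1.39 ± 0.07, adjusted p = 3.35e-06), in Δ95–99 by 2.79-fold (1.48 ± 0.07, adjusted p = 4.14e-06) and in Q133H by 2.32-fold (1.21 ± 0.12, adjusted p = 0.000289). All 3 held in the averaged test, and the Q133H value was 2.52-fold without the library that stood apart. At day 1 the same lines were higher by 2.05-fold, 1.69-fold and 1.85-fold, again in both tests. S54F was 1.36-fold higher at day 1 (adjusted p = 0.02787) and 1.17-fold higher at day 0, calls that each held in only 1 of 6 fits with a library left out and not in the averaged test. At day 0 Q133H was 1.38-fold higher (adjusted p = 0.003346), which the averaged test did not keep. In EMD-/y the differences were not past the threshold, with 95% intervals of -0.15 to 0.17 at day 0, -0.40 to 0.40 at day 1 and -0.17 to 0.21 at day 2 on the log2 scale. All lines are set against the same 3 wildtype libraries of a day, so these comparisons are not independent.

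Ezh1 (gene 14055, chr11:101191115-101226463, minus strand) took the opposite course at a lower level. In wildtype it held 439, 457 and 341 normalised reads at day 0, 437, 450 and 498 at day 1 and 608, 572 and 553 at day 2. In EMD-/y it held 280, 273 and 306, then 315, 354 and 373, then 458, 454 and 452. In +EMD it stayed between 276 and 332 in all 9 libraries. Wildtype at day 2 had the highest mean of the 18 groups (577.8) and +EMD at day 1 the lowest (283.9), and the wildtype day 2 libraries lay above those of every other group.

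Ezh1 rose from day 1 to day 2 in 4 of 6 lines, by 1.45-fold in S54F (log2 0.54 ± 0.09, adjusted p = 0.000623), 1.34-fold in Q133H, 1.28-fold in EMD-/y and 1.23-fold in wildtype. Of these only S54F held in the averaged test. The log2 changes in +EMD (0.19, 95% interval 0.01 to 0.37) and Δ95–99 (0.21, -0.05 to 0.46) did not pass. Over the 6 comparisons 10.7% to 33.8% of all genes rose. From day 0 to day 1 the single call was a 1.21-fold rise in EMD-/y (adjusted p = 0.04794), kept in 2 of 6 fits with a library left out.

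Ezh1 was lower than in wildtype in 11 of 15 comparisons and higher in none. In single comparisons 6.27% to 34.0% of all genes were lower than in wildtype. The difference was 1.76-fold in +EMD at day 2 (log2 -0.82 ± 0.07, adjusted p = 5.202e-05) and 1.62-fold in +EMD at day 1, 1.45-fold in Q133H at day 1, and 1.40-fold both in S54F at day 1 and in Δ95–99 at day 2. Those 5 held in the averaged test. Ezh1 was also the one gene of the 9 called on all 3 days in EMD-/y, lower by 1.42-fold, 1.33-fold and 1.28-fold. The EMD-/y calls were weak: those of days 0 and 1 were kept in 1 of 6 fits with a library left out, that of day 2 in 5 of 6, and none in the averaged test (adjusted p = 0.412, 0.233 and 0.116). In EMD-/y 7.09%, 6.27% and 9.98% of all genes were lower than in wildtype on the 3 days.

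The balance between both enzymes, as the ratio of Ezh2 to Ezh1 normalised reads per kilobase of exon, fell in wildtype from 6.35 ± 1.51 (SD, n = 3) at day 0 to 3.61 ± 0.84 at day 1 and 0.959 ± 0.038 at day 2. In EMD-/y it was 8.97 ± 0.53, 4.85 ± 1.30 and 1.24 ± 0.12, and in S54F 8.38 ± 1.11, 6.75 ± 0.38 and 1.39 ± 0.12. In +EMD it rose from 9.60 ± 0.69 to 11.8 ± 0.7 before it fell to 4.44 ± 0.23. Δ95–99 ended at 3.76 ± 0.30 and Q133H at 2.94 ± 0.42, where the libraries other than the one that stood apart held 3.12 and 3.24. The day 2 ratios of +EMD, Δ95–99 and Q133H lay above all those of the other 3 lines (2.46 in the lowest library against 1.48 in the highest). Whether wildtype at day 2 held less Ezh2 than Ezh1 depends on the length used, since with the longest coding transcript in place of all exons the ratio was 1.30.

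**Figure D2:**
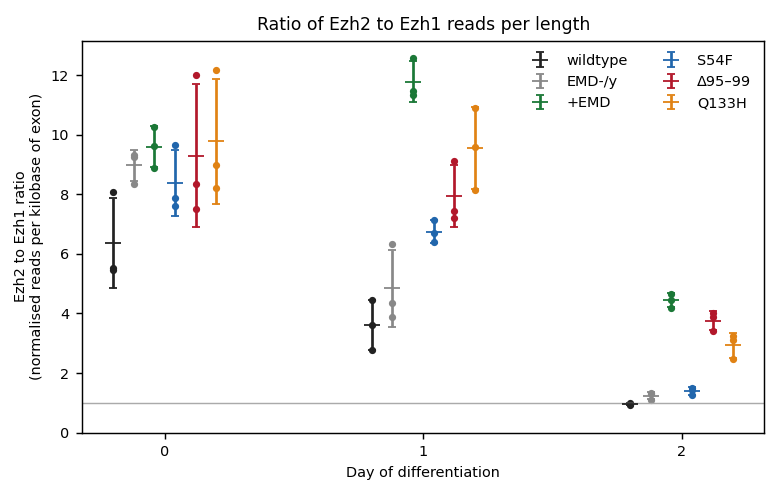
Ratio of Ezh2 to Ezh1 normalised reads per kilobase of exon (vertical axis, linear from 0) at days 0, 1 and 2 (horizontal axis) for each of the 6 lines, with a point for each library, a dash at the mean of 3, bars of 1 SD and a grey line at equal levels. At day 2 wildtype, EMD-/y and S54F averaged 0.959 to 1.39, while +EMD, Δ95–99 and Q133H averaged 2.94 to 4.44.

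Suz12 (gene 52615, chr11:79993106-80034123, plus strand), needed for the stability of the complex, also fell in every line on the second day, by less than Ezh2 did. Wildtype libraries held 2775, 2820 and 2924 normalised reads at day 0, 2309, 2112 and 2139 at day 1 and 1606, 1777 and 1575 at day 2. The groups of the 3 days did not overlap. The fall from day 1 to day 2 ranged from 1.25-fold in Δ95–99 (log2 -0.32 ± 0.06, adjusted p = 0.003754) to 1.46-fold in Q133H (-0.55 ± 0.08, adjusted p = 0.01049), and was 1.35-fold in wildtype. In the averaged test 4 of the 6 were kept, EMD-/y and Q133H not. Suz12 also fell by day 1 in wildtype, EMD-/y, S54F and +EMD by 1.19-fold to 1.31-fold, none of them kept in the averaged test. Against wildtype it was higher in +EMD and Δ95–99 at days 1 and 2, by 1.12-fold to 1.21-fold, none kept in the averaged test.

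Eed (gene 13626, chr7:89954654-89980976, minus strand), the subunit that binds the methyl mark, rose and then fell. In wildtype its libraries moved from 847, 895 and 1016 to 1298, 1242 and 1262 and back to 872, 744 and 825. In +EMD they moved from 918, 1012 and 1042 to 1797, 1729 and 1526 and back to 918, 867 and 904. In Q133H they moved from 1068, 1078 and 1228 to 1507, 1531 and 1590 and stayed at 1511, 1410 and 1170. The day 1 libraries lay above the day 0 libraries in each of these lines.

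The rise of Eed by day 1 passed in 6 of 6 lines, from 1.25-fold in EMD-/y to 1.69-fold in +EMD (log2 0.76 ± 0.08, adjusted p = 0.000215), and 2 of these, +EMD and Δ95–99, held in the averaged test. The fall by day 2 passed in 5 of 6 lines, from 1.49-fold in Δ95–99 to 1.90-fold in +EMD (-0.93 ± 0.07, adjusted p = 2.213e-05), and all 5 held. In Q133H the log2 change was -0.23 (95% interval -0.47 to 0.00) and -0.15 ± 0.07 without the library that stood apart (adjusted p = 0.1267). Eed at day 2 was accordingly higher in Q133H than in wildtype by 1.65-fold (log2 0.72 ± 0.11, adjusted p = 0.001589), in both tests, and by 1.76-fold without that library. Eed was higher than in wildtype in 5 further comparisons, by 1.15-fold to 1.33-fold, none kept in the averaged test.

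The histone chaperones had the most RNA of the 9 genes. Rbbp4 (gene 19646, chr4:129307100-129335370, minus strand) averaged 7436 to 12001 normalised reads over the groups and Rbbp7 (gene 245688, chrX:162760372-162779090, plus strand) 5334 to 8601. Per kilobase of exon the medians over groups were 2481 for Rbbp7 and 1117 for Rbbp4, against 320 for Ezh2 and 48.0 for Ezh1.

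Rbbp7 fell from day 1 to day 2 in 5 of 6 lines, by 1.15-fold in Δ95–99 to 1.38-fold in S54F (log2 -0.47 ± 0.06, adjusted p = 0.0001391), with +EMD and S54F kept in the averaged test. Without the Q133H library that stood apart, the day 1 to 2 changes of Q133H were 1.33-fold for Ezh1, 1.44-fold for Suz12 and 1.41-fold for Rbbp7, in the same directions and past the threshold. By day 1 Rbbp7 had fallen in wildtype and EMD-/y by 1.24-fold and 1.28-fold, calls kept in 2 of 6 fits with a library left out. At day 2 it was higher than in wildtype in +EMD, Δ95–99 and S54F by 1.17-fold to 1.23-fold, and at day 1 in +EMD and S54F by 1.32-fold and 1.31-fold, of which the day 2 differences of +EMD and Δ95–99 were kept in the averaged test. Rbbp4 rose by day 1 in S54F by 1.41-fold (log2 0.49 ± 0.04, adjusted p = 0.0001477), from 7638, 7940 and 7612 to 10790, 10918 and 10731 normalised reads, and in +EMD by 1.23-fold, both kept in the averaged test. It was lower than in wildtype at day 0 in S54F, Δ95–99 and Q133H by 1.22-fold to 1.31-fold, not kept there, and at day 1 in Δ95–99 and in Q133H, the latter by 1.35-fold in both tests. Smaller Rbbp4 calls, 1.11-fold to 1.21-fold and not kept, were a higher level in +EMD at day 2 and rises in Δ95–99 over both intervals. In Q133H at day 2 Rbbp4 depended on 1 library. With all 3 the log2 difference from wildtype was -0.40 ± 0.16 (adjusted p = 0.0595), and without the library that stood apart it was -0.58 ± 0.06 (adjusted p = 0.0001015).

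Reads for these chaperones carry a further uncertainty, because the strand setting of the counting is not given in the sources used here. Exons of Rbbp4 share 782 bases with Sync and 796 bases with Gm26722, both on the opposite strand. Rbbp7 shares 174 bases with Txlng and has a processed pseudogene, Gm6382, 97.1% identical over 942 bases. Smaller overlaps on the opposite strand were found for Mtf2 with Tmed5 (395 bases), Eed with E230029C05Rik (261), Suz12 with Gm26563 (178) and Ezh2 with Gm26625 (174).

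Phf19 (gene 74016, chr2:34893752-34914353, minus strand), the Polycomb-like protein, had the fewest reads of the 9 and the widest range of group means, 9.33-fold. Wildtype libraries held 21.1, 43.5 and 54.5 normalised reads at day 0, 55.7, 42.9 and 47.3 at day 1 and 17.8, 26.9 and 23.3 at day 2. In +EMD they held 87.5, 92.3 and 95.1, then 210, 208 and 216, then 79.8, 78.0 and 91.2. In Δ95–99 they held 122, 117 and 150, then 181, 215 and 211, then 46.2, 60.9 and 46.3. On each day all libraries of +EMD and Δ95–99 lay above all those of wildtype.

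From day 1 to day 2 Phf19 fell in 6 of 6 lines, by 2.15-fold in wildtype (log2 -1.11 ± 0.25, adjusted p = 0.006081) to 4.32-fold in S54F (-2.11 ± 0.16, adjusted p = 6.807e-06), and 5 of these, all but Q133H, held in the averaged test. Without the library that stood apart the Q133H fall was 2.42-fold in place of 3.27-fold. By day 1 it had risen in 5 of 6 lines, by 1.53-fold in Q133H to 2.28-fold in +EMD (1.19 ± 0.11, adjusted p = 8.385e-05), of which only +EMD held in the averaged test. The wildtype change of 0.39 had a 95% interval of -0.45 to 1.24 and did not pass.

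Phf19 was higher than in wildtype in 9 of 15 comparisons. In single comparisons 6.84% to 33.1% of all genes were higher. At day 1 the difference was 4.32-fold in +EMD (log2 2.11 ± 0.14, adjusted p = 4.533e-05), 4.09-fold in Δ95–99, 2.68-fold in Q133H and 2.64-fold in S54F, all in both tests. At day 2 it was 3.58-fold in +EMD and 2.24-fold in Δ95–99, also in both. Q133H at day 2 went from 0.84 ± 0.42 (adjusted p = 0.1161) with its 3 libraries, which held 55.3, 58.9 and 21.6, to 1.28 ± 0.26 (adjusted p = 0.00344) without the last. At day 0 Δ95–99 was 3.47-fold higher in both tests, and +EMD and Q133H were 2.46-fold and 2.37-fold higher in the first test only. In EMD-/y the log2 differences were 0.26, 0.62 and 0.40 on the 3 days, none past the threshold (day 1 adjusted p = 0.05999).

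Jarid2 (gene 16468, chr13:44730774-44921643, plus strand), which helps PRC2 bind and stimulates its activity, separated the lines at day 2. Wildtype held 326, 306 and 296 normalised reads there and EMD-/y 372, 342 and 370. The values were 624, 663 and 619 in +EMD, 534, 481 and 430 in S54F, 807, 676 and 575 in Δ95–99 and 488, 532 and 763 in Q133H. Every library of the transduced lines was above every library of wildtype and EMD-/y.

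At day 2 Jarid2 was higher than in wildtype by 2.23-fold in Δ95–99 (log2 1.15 ± 0.13, adjusted p = 0.0001436), 2.05-fold in +EMD (1.04 ± 0.07, adjusted p = 1.992e-05), 1.86-fold in Q133H (1.61-fold without the library that stood apart) and 1.54-fold in S54F. All 4 held in the averaged test. At day 1 it was higher in +EMD by 1.57-fold in both tests and in S54F by 1.36-fold in the first only, as was +EMD at day 0 (1.41-fold). Between day 1 and day 2 it fell in wildtype by 1.32-fold and in EMD-/y by 1.34-fold and rose in Δ95–99 by 1.38-fold (adjusted p = 0.028, kept in 2 of 6 fits with a library left out), none of them kept in the averaged test. In Q133H the change of 0.72 ± 0.22 did not pass (adjusted p = 0.05887), nor did that of 0.50 ± 0.16 without the library that stood apart (adjusted p = 0.0568).

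Mtf2 (gene 17765, chr5:108065660-108109219, plus strand), a Polycomb-like protein like Phf19, was the steadiest over time. Its group means ran from 735 in EMD-/y at day 2 to 1014 in +EMD at day 0, a 1.38-fold range, and 10 of 12 changes between days did not pass. The 2 that did were falls by day 2 of 1.15-fold in wildtype and 1.19-fold in EMD-/y. Against wildtype it was 1.27-fold and 1.19-fold higher in +EMD at days 0 and 2 and 1.15-fold lower in EMD-/y at day 2. None of these 5 calls held in the averaged test.

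Counted together, 63 of the 108 changes between days passed, 22 upward and 41 downward. In wildtype 4 members passed from day 0 to 1 and 8 from day 1 to 2, where 58.5% and 62.5% of all genes passed, and the averaged test kept 1 and 4 (34.2% and 46.0% of all genes). In EMD-/y 6 and 7 passed (56.9% and 59.1% of all genes), and 0 and 3 in the averaged test (29.3% and 33.3%). In +EMD 5 and 5 passed (56.5% and 65.1%), and 3 and 5 in the averaged test (40.4% and 48.4%).

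In S54F 5 and 6 passed (54.2% and 67.2% of all genes), and 2 and 6 in the averaged test (31.9% and 59.8%). In Δ95–99 3 and 7 passed (49.1% and 50.3%), and 1 and 4 in the averaged test (26.9% and 30.7%). In Q133H 2 and 5 passed (40.4% and 24.9%), and 0 and 0 in the averaged limma test (11.6% and 0.0%), where 7 of 18 had an unadjusted p under 0.05. Without the library that stood apart 5 passed from day 1 to 2 in Q133H, where 35.8% of all genes did. These shares lay on both sides of the background. The averaged test kept 29 in all. From day 0 to 1 there were 16 rises and 9 falls, and from day 1 to 2 there were 6 rises and 32 falls, with a median log2 change of the members between -0.47 and -0.20 in the 6 lines where that of all genes lay between -0.01 and 0.01.

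**Figure D3:**
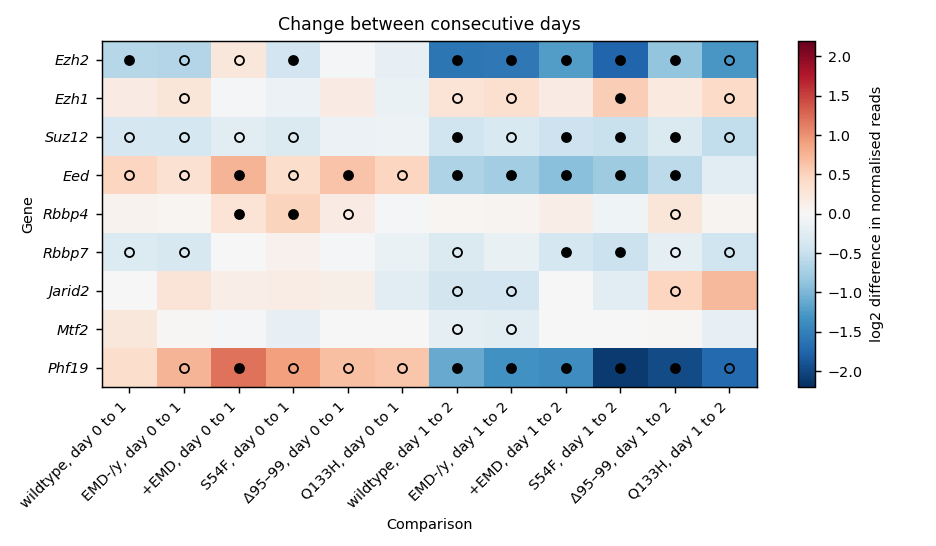
Log2 change of the 9 genes (rows) in each line from day 0 to 1 and from day 1 to 2 (columns), as colour. Circles mark an adjusted p under 0.05 and filled circles those that also passed in the averaged test, and the day 1 to 2 columns show falls of Ezh2, Suz12 and Phf19 in all 6 lines.

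Against wildtype 60 of 135 differences passed, 43 higher and 17 lower, and 27 in the averaged test. In +EMD 4, 7 and 8 of the 9 members were called on days 0, 1 and 2, where 47.5%, 59.7% and 60.6% of all genes were, and the averaged test kept 0, 4 and 5 (24.8%, 38.2% and 46.2% of all genes). In Δ95–99 2, 6 and 7 were called (30.5%, 56.8% and 61.8% of all genes), and 1, 2 and 5 in the averaged test (9.25%, 33.1% and 48.2%). In Q133H 4, 5 and 4 were called (33.1%, 58.9% and 67.1%), and 0, 4 and 3 in the averaged test (8.96%, 36.1% and 40.8%). Without the library that stood apart 6 were called in Q133H at day 2, Rbbp4 and Phf19 in addition, where 76.8% of all genes were. In these 3 lines the averaged test called fewer members at day 0 than later, and fewer of all genes too.

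In S54F 2, 5 and 2 members were called (25.9%, 43.9% and 39.7% of all genes), and 0, 2 and 1 in the averaged test (5.21%, 19.0% and 23.4%). In EMD-/y 1, 1 and 2 were called, all lower, where 13.9%, 13.4% and 22.0% of all genes were called, and 0 in the averaged limma test on each day (2.21%, 2.27% and 6.01%), where 3 of 27 had an unadjusted p under 0.05. These shares too lay on both sides of the background.

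**Figure D4:**
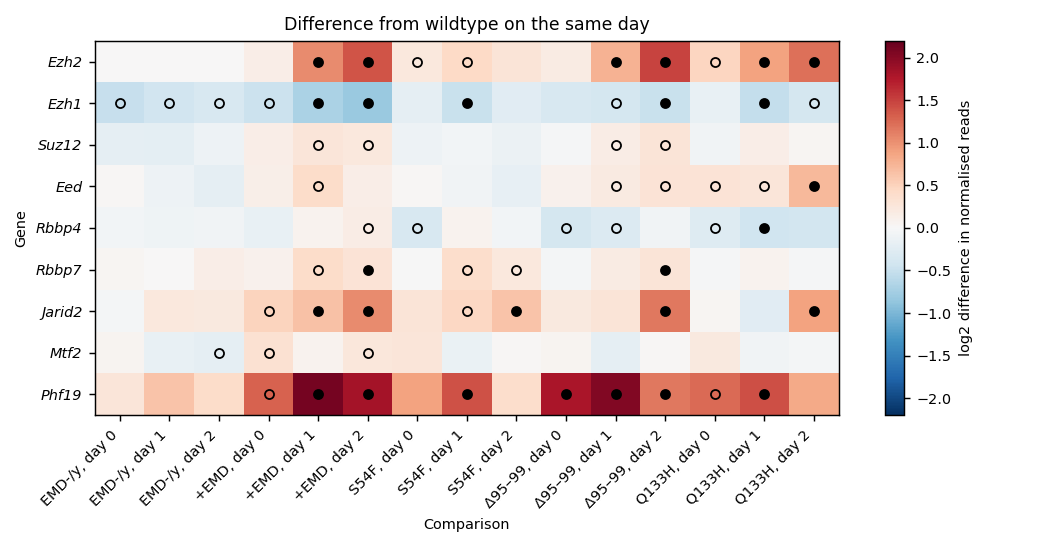
Log2 difference from wildtype of the 9 genes (rows) in the 5 other lines at days 0, 1 and 2 (columns), as colour. Circles mark an adjusted p under 0.05 and filled circles those that also passed in the averaged test, which in EMD-/y were 0 of 27 and in +EMD 9 of 27.

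A call in one line and not in another does not show that they differ, so the change of each line was set against the wildtype change over the same interval in a single fit of all 18 groups. Of 90 such differences 13 passed, 11 upward and 2 downward, and 3 in the averaged test. From day 0 to 1 and from day 1 to 2 they numbered 2 and 0 in +EMD (28.7% and 27.1% of all genes, and 7.01% and 8.84% in the averaged test), 3 and 0 in S54F (20.0% and 6.91%, then 3.37% and 0.472%), 2 and 3 in Δ95–99 (33.6% and 34.1%, then 10.6% and 12.3%) and 1 and 2 in Q133H (45.6% for each, then 23.5% and 23.4%). Without the library that stood apart 3 passed in Q133H from day 1 to 2, where 48.9% of all genes did. None of the 18 passed in EMD-/y, where 0.457% and 0.914% of all genes did, nor in its averaged test (0.0152% and 0.0533%), by limma with voom weights, or at an unadjusted p under 0.05 in any of these.

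For Ezh2 the +EMD change from day 0 to 1 exceeded that of wildtype by 0.90 ± 0.15 on the log2 scale (adjusted p = 3.13e-05), the Δ95–99 change by 0.60 ± 0.15 (adjusted p = 0.00216) and the Q133H change by 0.45 ± 0.15 (adjusted p = 0.0145). From day 1 to 2 the Δ95–99 change exceeded it by 0.69 ± 0.15 (adjusted p = 0.000559), that is, Ezh2 fell less. The first and the last of these held in the averaged test (adjusted p = 0.0144 and 0.0217). The +EMD and Q133H differences from day 1 to 2, 0.36 and 0.33, did not pass (adjusted p = 0.0727 and 0.0742), and without the library that stood apart the latter was 0.46 ± 0.15 (adjusted p = 0.009464).

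For Jarid2 the day 1 to 2 change exceeded that of wildtype by 1.14 ± 0.24 in Q133H (adjusted p = 0.000157, and 0.0192 in the averaged test) and by 0.84 ± 0.24 in Δ95–99 (adjusted p = 0.006). The Q133H value was 0.94 ± 0.23 without the library that stood apart. Of all genes 45.6% passed in that Q133H comparison and 34.1% in that of Δ95–99, so these are differences among many. The other 7 differences that passed, for Rbbp7, Rbbp4, Mtf2, Eed and Phf19, lay between -0.89 and 0.46 and none held in the averaged test.

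**Figure D5:**
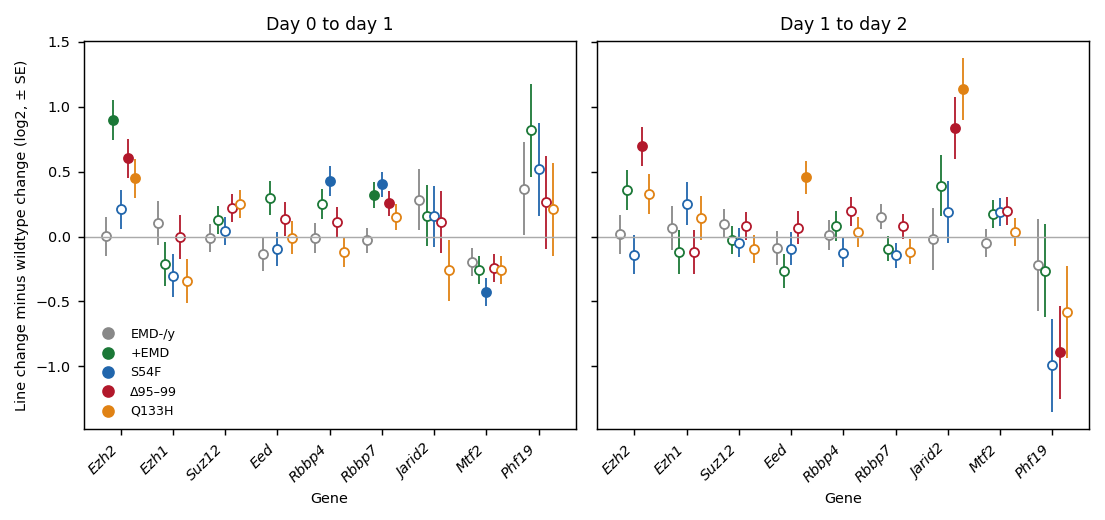
Change of each line minus the wildtype change over the same interval (vertical axis, log2) for the 9 genes (horizontal axis), in a panel for each interval, with bars of 1 SE and filled points where the adjusted p was under 0.05. The filled points farthest from 0 are Jarid2 in Q133H from day 1 to 2 (1.14) and Ezh2 in +EMD from day 0 to 1 (0.90).

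Proliferation genes fell with Ezh2 from day 1 to 2, and their part in its differences was not tested. All 11 listed genes (Mki67, Top2a, Cdk1, Ccnb1, Ccna2, Pcna, Mcm2, Mcm5, Rrm2, Tyms and E2f1) fell from day 1 to 2 in every line, 66 of 66 tests, with medians of -1.39 to -3.00 on the log2 scale, and 54 were kept in the averaged test. Pooled over the same 6 comparisons 27.7% of all genes fell, and 18.2% in the averaged test. From day 0 to 1 the 11 genes gave 13 rises and 32 falls in 66 tests. In single comparisons over that interval 21.2% to 29.3% of all genes rose and 19.2% to 29.2% fell. Mki67 fell in 12 of 12 comparisons between days, so also in +EMD from day 0 to 1, where Ezh2 rose. At day 2, 11 of 11 were higher than in wildtype in +EMD and in Δ95–99 in both tests, with median log2 differences of 2.59 and 2.56, where 30.3% and 30.9% of all genes were higher (23.8% and 24.4% in the averaged test). In Q133H 10 were higher, with a median of 1.70, and 3 in the averaged test, where 33.1% and 20.5% of all genes were. Without the library that stood apart all 11 were higher in Q133H, with a median of 2.14. In S54F and EMD-/y 6 were higher and 1 lower, with medians of 0.55 and 0.66, where 20.2% and 12% of all genes were higher, and 4 were higher in each in the averaged test. Mki67, the antigen used to mark cycling cells, averaged 77.4 normalised reads in wildtype at day 2, 419 in EMD-/y and 2767 in +EMD. In EMD-/y at day 2 Mki67 was higher than in wildtype (log2 2.45 ± 0.25, adjusted p = 0.000656 by limma), and Ezh2 averaged 507 against 497.

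Over the 18 group means, the log2 level of Ezh2 correlated with those of the 11 proliferation genes at Pearson's r of 0.876 to 0.976. Among the 10168 genes with a mean of at least 100, those most like Ezh2 included Wdhd1 (0.992), Prim1 (0.988), Clspn and Exo1 (each 0.987), which are known for DNA replication and DNA repair. Those most like Ezh1 were Ctsz (0.926), Nfs1, Osbpl2, Kif3a and Wdpcp (0.901). Ezh2 and Suz12 correlated at 0.914, and Ezh2 and Ezh1 at -0.80. These values describe 18 groups that share lines and days.

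In the order of Ezh2 levels, Q133H at day 0 (3145 ± 173, SD), +EMD at day 1 (3002 ± 170), Q133H at day 1 (2754 ± 251) and S54F at day 0 (2676 ± 16) came first, each overlapping with the next. The day 2 groups were the 6 lowest. Δ95–99 (1370 ± 78), +EMD and Q133H overlapped in turn, and S54F (614 ± 100), EMD-/y and wildtype (497 ± 12) lay below them. These last 3 overlapped in turn, and no overlap joined the groups of 3.

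Among other Polycomb genes, the PRC2 partner Epop fell in 12 of 12 comparisons between days, from 138 to 48.4 and then 26.8 normalised reads in wildtype, and was higher than in wildtype in 7 of 15. Over the 5 further PRC2 partners (Aebp2, Phf1, Epop, Lcor and Lcorl), 6 of the 60 tests between days were rises and 21 were falls (10.0% and 35.0%, where 27% and 26.8% of all genes rose and fell over the same comparisons). In the averaged test 1 rise and 12 falls were left, with 16.8% and 16.0% of all genes. Against wildtype the 5 partners were higher in 21 of 75 tests and lower in 5. In single comparisons 6.84% to 33.1% of all genes were higher than in wildtype and 6.27% to 34.0% lower. Lcor was higher than in wildtype in 7 of 15 comparisons and Phf1 in 4, and neither was lower in any. Phf1 rose in 4 comparisons between days and Aebp2 fell in 5.

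The 18 genes of PRC1, the complex that binds the PRC2 mark and ubiquitinates histone H2A, gave 39 rises and 79 falls in 216 tests between days, 18.1% and 36.6%, beside the same 27% and 26.8% of all genes. In the averaged test 18 rises and 45 falls were left, 8.33% and 20.8%. Against wildtype 84 of 270 differences were higher and 35 lower (31.1% and 13.0%, with 21.1% and 21.2% of all genes), and 42 and 8 in the averaged test. Cbx2, which reads the mark, fell in 9 of 12, and Pcgf2 and Phc2 in 10 of 12 each. Against wildtype Cbx2 was higher in 9 of 15, Cbx6 higher in 8 and lower in 3, and Pcgf5 lower in 10. In +EMD at day 1 Cbx2 averaged 668 normalised reads, against 162 in wildtype.

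Kdm6b, a demethylase that removes the PRC2 mark, rose in 8 of 12 comparisons between days and fell in none, from 807 to 1349 and 1673 normalised reads in wildtype. Its relative Kdm6a fell in 2. Against wildtype Kdm6b was higher in 3 of 15 and lower in 3. In the complex that removes the PRC1 mark, Asxl1 was higher than in wildtype in 8 of 15, and Bap1 and Asxl2 lower in 4 and higher in 1 each. Together these 3 genes gave 10 higher and 8 lower in 45 tests, and the 2 demethylases 5 and 3 in 30. In single comparisons 6.84% to 33.1% of all genes were higher than in wildtype and 6.27% to 34.0% lower. Between days 10.7% to 33.8% rose and 14.3% to 33.4% fell. Averaged tests of these genes are not given here.

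Of 6 muscle genes listed as repressed by PRC2 in dividing myoblasts (Myog, Ckm, Myh3, Mymk, Tnnt2 and Actc1), whole reads were recovered for Ckm alone, since the others were too abundant. Ckm, muscle creatine kinase, rose from 171 to 1870 and 9639 normalised reads in wildtype. In Q133H it averaged 29.6, then 14.5 and then 783, of which the library that stood apart held 1918 and the others 185 and 246. It rose in 10 of 12 comparisons between days, and was lower than in wildtype in 8 of 15, all of them in +EMD, Δ95–99 and Q133H. At day 2 its log2 difference from wildtype was -0.99 in +EMD, -1.65 in Δ95–99 and -4.44 in Q133H, and -5.51 in Q133H without the library that stood apart.

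For the other 5 genes only the authors' group values are given, with no spread and no test. They come from the authors' comparisons between days, in which each line was normalised on its own. The comparisons with wildtype, which scale both groups together, were not read for these genes. At day 2 Myh3, a myosin heavy chain, stood at 261928 in wildtype, 128188 in +EMD, 84864 in Δ95–99 and 15594 in Q133H. Mymk, needed for myoblast fusion, and Tnnt2, a troponin, were likewise listed lower in those 3 lines than in wildtype, at 5740.2 to 34445 against 50621 and at 9211 to 26737 against 49890.2. Actc1, cardiac actin, was listed higher than the wildtype value of 95089.6 in +EMD (226868) and lower in Q133H (13988). It was also listed higher in EMD-/y (205514) and S54F (235828), where Ezh2 was not called higher than in wildtype at day 2. In Δ95–99 it was listed at 103192, a gap from wildtype too small to read across values normalised apart. Myog, a regulator of muscle differentiation, was at 50156 in wildtype, 49992 in +EMD, 46218.5 in Δ95–99 and 22025 in Q133H. In +EMD, where Ezh2 was higher than in wildtype, Actc1 was the only one of the 6 genes listed above wildtype at day 2. Myog in +EMD lay too close to wildtype to give a side. In Q133H all 6 were lower. In Δ95–99, where Ezh2 was also higher, Ckm, Myh3, Mymk and Tnnt2 were lower. Actc1 and Myog in Δ95–99 lay too close to wildtype for values normalised apart to give a side. The part of Ezh2 in these values was not tested.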

How the data were processed

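Poly(A) RNA of 54 cultures in 18 groups of 3 was sequenced as paired-end reads on the DNBSEQ platform. Per the labels and the study's methods the authors aligned the reads with HISAT2 to mm10 and compared groups with DESeq2. The strand setting and the counting tool are not given in the sources used here. Deposited were 27 tables, 15 of a line against wildtype and 12 between consecutive days. Each holds a normalised expression signal per gene for the 2 groups compared, as deposited by the authors. The authors' own fold changes, p-values, adjusted p-values and calls in the same tables were not used. Columns of per-sample values that were not used numbered 0.

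The mean of the 2 deposited signals is the plain mean of 6 libraries of whole reads divided by size factors, while the split between the groups carries the authors' shrunken fold change (the deposited log2 ratio was 0.586 of the plain one, as a median over genes of at least 2-fold change with a mean of 1 to 10, and 0.988 for a mean over 100). Whole reads per library were therefore solved from the 7 tables of each line and wildtype, by lattice reduction with a relative tolerance of 1.2e-14. For each line 98.97% to 99.41% of its genes were solved, and 17714 genes were solved in all 5 lines. Genes listed in none of the 7 tables of a line were taken as 0 reads there. With these, 19400 genes had a count in all 54 libraries. The wildtype reads of 17714 of 17714 genes came out identical from the 5 lines. Genes not solved were very abundant and held 10.1% to 22.4% of the summed signal, and they enter no test. Recovered libraries carry no replicate number, so their numbers 1 to 3 are names only.

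Each comparison was fitted on its 6 libraries with limma 3.58.1 in R 4.3.3 (lmFit, eBayes with trend) on log2 (normalised reads + 1), over genes with a mean of at least 10 normalised reads, two-sided, with Benjamini-Hochberg adjustment over all genes tested and a threshold of 0.05. The difference between the change of a line and that of wildtype came from 1 limma fit of all 54 libraries. Fold changes are on this log2 (value + 1) scale and understate the change of genes with few reads. On simulated data with 200 changed genes, the test of 2 groups recovered 187 and called 6 others among 12822 genes. The test of the difference between changes recovered 159 and called 5 others among 12891. The simulated libraries of a group were independent, with the same spread setting for all genes, and changed genes were among the more abundant. Closer pairs as in the real groups were absent, so these counts give no error rate for the real libraries.

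All 9 members were named in every comparison, and in other lists the 3 genes with the largest absolute median log2 value among those past the threshold at least once. Likeness was ranked by Pearson's r of log2 level over 18 groups for genes averaging 100 or more, which left out Phf19. Copies were transcript matches of at least 200 bases and 97% identity (minimap2 2.31-r1302). Alternatives were a 2-fold minimum, no filter, a pseudocount of 0.1, scaling by the library total, voom weights, a fit of all groups, leaving out each library, and averaging the closest 2 libraries of a group. The members and lists were chosen with earlier results of these data known. Some genes that these lists and rules hold are not reported here.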

Additional observations from a re-analysis of the deposited data

Results flagged for a closer look

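Results are given here because a line's change over an interval differed from the wildtype change in a test of that difference (limma, 54 libraries, adjusted p under 0.05). For Ezh2 the log2 difference was 0.90 in +EMD, 0.60 in Δ95–99 and 0.45 in Q133H from day 0 to 1, and 0.69 in Δ95–99 from day 1 to 2. For Rbbp7 it was 0.32 in +EMD, 0.40 in S54F and 0.25 in Δ95–99 from day 0 to 1. In S54F over the same interval it was 0.43 for Rbbp4 and -0.42 for Mtf2. From day 1 to 2 it was 0.84 in Δ95–99 and 1.14 in Q133H for Jarid2, 0.46 in Q133H for Eed and -0.89 in Δ95–99 for Phf19. The Phf19 difference (adjusted p = 0.0498) was kept in 13 of 54 fits with a library left out, and the Rbbp7 difference in Δ95–99 in 46 of 54. Explanations were not tested.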

How the results depend on the processing

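No member value reversed its direction past the threshold under the alternatives run. With a 2-fold minimum 12 of the 63 changes between days, 15 of the 60 differences from wildtype and 1 of the 13 differences between changes remained past it, where 8.04% to 21.3%, 5.25% to 31.1% and 0.289% to 17.4% of all genes were called. With the closest 2 libraries averaged, chosen after seeing the data, 29, 27 and 3 passed; this fit has fewer samples. Leaving out 1 library at a time gave 57 to 64, 53 to 65 and 10 to 19 calls over 54 fits. No filter (59, 56 and 11), a pseudocount of 0.1 (63, 59 and 12), scaling by the library total (65, 59 and 17) and voom weights (63, 59 and 12) stayed within 1.5 times of the counts above, as did a fit of all 18 groups (64 changes between days and 66 differences from wildtype). Scaling by the library total moved the median log2 value of all genes to -0.13 in EMD-/y, -0.12 in S54F and -0.11 in +EMD from day 1 to 2, and to 0.11 in Δ95–99 and 0.15 in Q133H against wildtype at day 2, and by less elsewhere. No paired analysis was possible because the recovered libraries carry no replicate number. The alternatives for unrecovered reads were not run, since reads were recovered. Depth limits Phf19 most, at 17.8 to 216 normalised reads per library.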
